A study of Mus musculus with 24 samples.

Results

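The expression of 7 genes of the major histocompatibility complex class II (MHCII) pathway was followed through the cell classes of Panc02 tumors. They were chosen by name: H2-Aa, H2-Ab1, H2-Eb1, Cd74, Ciita, H2-DMa, and H2-DMb1, which are 7 of the 32285 genes counted, and each has 1 row in the table. Panc02 is a murine pancreatic cancer cell line. It was implanted subcutaneously in wild-type male C57BL/6 mice aged 6–7 weeks, and the methods of the study give the harvest of the tumors as day 38. A figure legend of the study gives other days for the harvest and the last anti-CTLA-4 dose, and the days here are those of the methods. The 8 treatment groups were Isotype Control, Anti-PD-1, Anti-CTLA-4, Anti-PD-1 + Anti-CTLA-4, PancVAX, PancVAX + Anti-PD-1 + Anti-CTLA-4, PancVAX + Anti-CTLA-4, and, as the last group, PancVAX + Anti-PD-1. PancVAX is a vaccine of tumor neoantigen peptides, given on days 12 and 19 with the emulsion AddaVax and an agonist of the innate sensor STING, so that its effect cannot be told apart from that of these adjuvants. Anti-PD-1 was given from day 12 and anti-CTLA-4 on days 15 and 22, and both antibodies block inhibitory receptors of T cells. The mice of a treatment were pooled. Each treatment has 1 library from the whole dissociated tumor and 1 after a Percoll density gradient, which the study describes as enriching immune cells. There are 16 libraries in all. The libraries of a treatment were summed as its pool, which is 1 sample, and 4 pools with an agent stand against 4 without it. No source used here tells whether both libraries of a treatment came from the same animals, and the preparations were also the 2 sequencing batches, so that preparation and batch cannot be told apart. The tumor grew from 1 cell line under the skin, which limits it as a model of the pancreas.

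MHCII molecules present peptides from engulfed material to CD4+ T cells. An alpha and a beta chain pair in the endoplasmic reticulum around the invariant chain, which is cut down in the endosome until a short fragment remains in the groove, and H2-DM then exchanges that fragment for a peptide. Dendritic cells, B cells, and macrophages make MHCII at rest or when activated, and many other cells make it after interferon gamma, which acts through the transactivator CIITA.

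CIITA does not bind DNA itself. It docks on factors at a shared set of boxes before the genes it drives, among them an X2 box read by CREB and a Y box read by NF-Y. These promoters are shown because each holds letters of both boxes. The stretches are from RefSeq (GRCm38.p6), each 60 bases on the gene's own strand, with the Y motif TGATTGG and the first upstream TGANG in capitals. In H2-Eb1 and H2-DMb1 a second TGATG overlaps the marked one and lies nearer to TGATTGG. The marked letters need not be the X2 box there, and the gap between the boxes is uncertain. H2-Aa is at chr17:34287859-34287918 on the minus strand, H2-Eb1 at chr17:34305761-34305820 on the plus strand, and H2-DMb1 at chr17:34153083-34153142 on the plus strand. H2-DMb2, a close copy of H2-DMb1, is at chr17:34145112-34145171 on the plus strand.
H2-Aa: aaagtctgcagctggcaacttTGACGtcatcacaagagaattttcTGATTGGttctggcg
H2-Eb1: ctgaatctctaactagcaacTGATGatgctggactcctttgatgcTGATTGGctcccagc
H2-DMb1: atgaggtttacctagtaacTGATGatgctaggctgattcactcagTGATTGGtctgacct
H2-DMb2: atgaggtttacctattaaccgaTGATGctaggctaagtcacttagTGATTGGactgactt

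Both motifs, at a gap of 10–25 bases, were searched on either strand in the 250 bases before each gene start. Of 32851 promoters, 7.23% held TGATTGG and 0.566% held both. Both promoter entries of H2-DMa lacked the letters searched. H2-Ab1, Cd74, and Ciita have no entry in the sequence table used here. H2-Oa, another class II gene of chromosome 17, held TGATTGG without the upstream letters at that gap, and H2-Ob held both. A match describes the letters and is not a measured binding site.

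Of the barcodes deposited, 57355 passed the limits on genes, unique molecular identifiers (UMIs), and mitochondrial UMIs, from 1793 to 7413 per library and with 7325594 to 29666753 UMIs per library. Classes were named from marker genes after clustering without the class II genes, so that the levels below did not shape the clusters. They held 12199 macrophages, 1330 monocytes, 444 type 1, 738 type 2, 352 mature, and 132 plasmacytoid dendritic cells, 2734 B cells, 7745 tumor-like cells, and 4299 stromal-like cells. Most stromal-like clusters also carried the keratin genes Krt8 and Krt18 of the tumor-like cells, and only 264 cells were led by Col1a2 and other fibroblast collagens, so that the name stromal-like is loose here. The Percoll library of PancVAX + Anti-PD-1 stood apart, with 26.8% of its cells in clusters that mixed markers of several classes (0.887% to 6.79% in the other libraries). Mixed clusters were left out. Of the distinct barcodes of these cells, 3.72% occurred in more than 1 library. Percoll libraries held 41.4% of the macrophages, 45.5% of the monocytes, 51.7% of the T cells, and 54.3% of the B cells. They also held 47.5% of the tumor-like and 52.8% of the stromal-like cells, so that the cells kept showed no general enrichment of immune classes by Percoll.

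The alpha and beta chain genes were highest in the class named type 2 dendritic, a kind of cell that mainly primes CD4+ T cells. Levels are given in CPM, the UMIs of a gene scaled to a fixed total for the UMIs of its class, each over the 8 pools. In this class the 11 monocyte markers summed to a median of 2013 CPM in whole-tumor and 1846 in Percoll libraries. Its own 7 markers summed to 1121 and 1393 CPM. The name is thus loose, and whether some of these cells came from monocytes was not tested. H2-Aa, the alpha chain of the I-A molecule, ran from 11498 to 13428 CPM in type 2 dendritic cells (median 12158), 9087 to 12810 in type 1 dendritic cells (median 10230), 8277 to 10297 in macrophages (median 9321), and 5983 to 8760 in B cells (median 7636). It was lower in monocytes (5269 to 7208 CPM, median 6056), mature dendritic cells (2656 to 5781, median 3530), and plasmacytoid dendritic cells (1061 to 3076, median 2462). Stromal-like cells (376 to 979 CPM, median 699) and tumor-like cells (196 to 605, median 352) formed the low end, above T cells (68.8 to 109, median 97.1). Neighbors in this order were compared by an exact two-sided sign-flip permutation test over 8 pools (smallest P = 0.00781), with Benjamini-Hochberg adjustment over all neighbor pairs of the 7 members. For H2-Aa, 7 of 8 neighbor pairs differed, and B cells and monocytes did not pass (adjusted P = 0.0591).

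H2-Ab1 encodes the beta chain that pairs with H2-Aa. Its median was 8697 CPM in type 2 dendritic cells, 7606 in macrophages, 6958 in type 1 dendritic cells, 4461 in monocytes, 4080 in B cells, 1411 in plasmacytoid dendritic cells, and 1132 in mature dendritic cells. Macrophages and type 1 dendritic cells, monocytes and B cells, and plasmacytoid and mature dendritic cells were not separated in these exact permutation tests (adjusted P = 0.109, 0.153, and 0.883). On a log scale the 8 mature dendritic pools spread most, from 203 to 2583 CPM. H2-Eb1 encodes the beta chain of the I-E molecule, whose alpha chain C57BL/6 mice lack. Its transcript was nevertheless abundant, at a median of 9068 CPM in type 2 dendritic cells, 7908 in macrophages, 6606 in type 1 dendritic cells, 4725 in B cells, and 4192 in monocytes. The last 2 of these did not pass the exact permutation test (adjusted P = 0.214).

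Cd74 encodes the invariant chain. Its level was 32438 to 39492 CPM in type 2 dendritic cells (median 35600), against medians of 29856 in macrophages, 28939 in type 1 dendritic cells, and 26452 in B cells, of which the neighboring pairs below type 2 dendritic cells did not pass the exact permutation test (adjusted P = 0.545 and 0.209). Monocytes had a median of 16962 CPM, mature dendritic cells 9972, plasmacytoid dendritic cells 9966, stromal-like cells 2252, tumor-like cells 1405, and T cells 354.

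**Figure D1:**
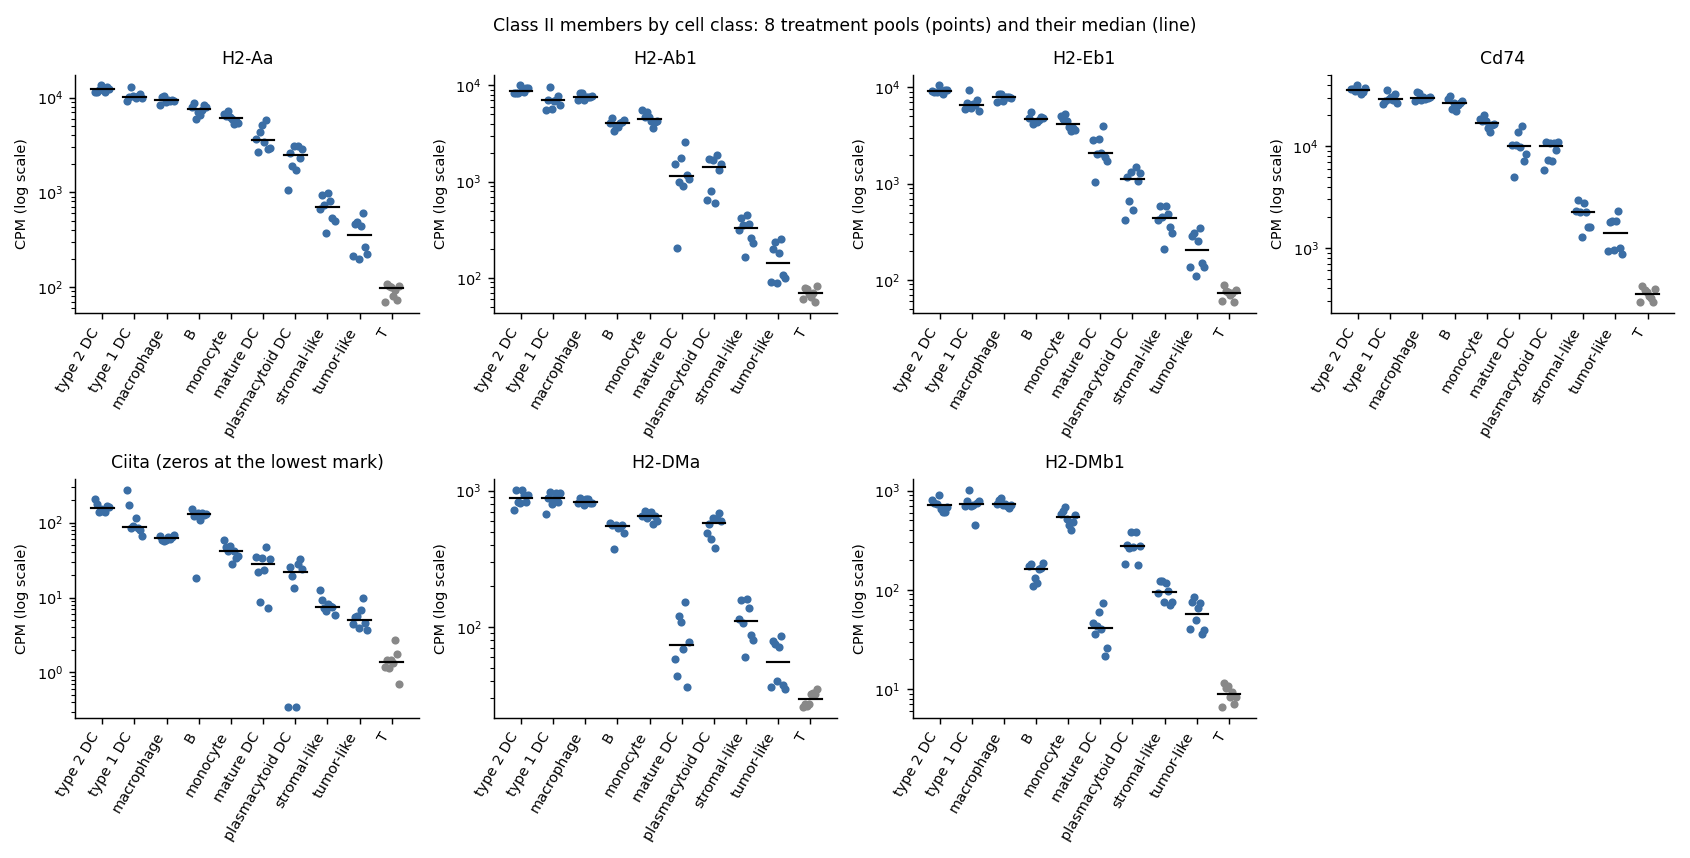
Level of each member (CPM, log scale) in 9 cell classes and T cells. A point is 1 of 8 treatment pools and a line their median. The myeloid antigen-presenting classes and B cells sit at the top for the chains and Cd74, mature dendritic cells spread most for H2-Ab1, and the T cells in gray sit lowest in median.

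Ciita encodes the transactivator that the others depend on, and its UMIs were few. Its level was 137 to 209 CPM in type 2 dendritic cells (median 157), 66.8 to 276 in type 1 dendritic cells (median 87.9), and 57.7 to 68.0 in macrophages (median 62.2). B cells had a median of 130 CPM and a lowest pool of 18.2, which was PancVAX + Anti-PD-1 with 42 B cells. Monocytes had a median of 41.9 CPM, beside 27.8 in mature dendritic cells, 21.7 in plasmacytoid dendritic cells, 7.56 in stromal-like cells, 5.01 in tumor-like cells, and 1.40 in T cells. The step from macrophages to monocytes passed the exact permutation test in 8 of 8 pools (adjusted P = 0.0208), and the steps among type 2 dendritic, type 1 dendritic, B, and macrophage classes did not (adjusted P = 0.0591, 0.875, and 0.101), nor did those from monocytes to mature and on to plasmacytoid dendritic cells (adjusted P = 0.0591 and 0.604). A Ciita UMI was found in 43.9% of type 2 dendritic cells and 19.9% of macrophages, whereas an H2-Ab1 UMI was found in 97.6% and 96.8%, so that most cells with the chain showed no transactivator UMI at this depth. T cells, which should lack both in the mouse, had a Ciita UMI in 0.550% and an H2-Ab1 UMI in 14.9% of cells, with a median of 3563 UMIs per cell against 3906 in macrophages and 5156 in type 2 dendritic cells.

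H2-DMa and H2-DMb1, the chains of the peptide exchange factor, followed another order, in which B cells and mature dendritic cells stood lower. H2-DMa had a median of 879 CPM in type 2 dendritic cells, 878 in type 1 dendritic cells, and 830 in macrophages, which were not separated in the exact permutation tests (adjusted P = 0.782 and 0.410). It was 652 CPM in monocytes, 583 in plasmacytoid dendritic cells, 548 in B cells, and 73.7 in mature dendritic cells, the last of which did not differ from stromal-like (111) or tumor-like cells (55.6) beyond their spread (exact permutation test, adjusted P = 0.266 and 0.0806). H2-DMb1 had a median of 724 CPM in macrophages, 540 in monocytes, 163 in B cells, and 41.6 in mature dendritic cells. Its near copy H2-DMb2 had a median of 833 CPM in B cells, 456 in type 2 dendritic cells, and 34.3 in macrophages. Reads that fit both copies could be assigned to either or dropped in counting, so the split between H2-DMb1 and H2-DMb2 is uncertain. The other nonclassical chains H2-Oa and H2-Ob, which restrain H2-DM, had medians of 438 and 567 CPM in B cells and 5.73 and 6.36 in macrophages. H2-Eb2, a further E beta gene, reached 131 CPM in B cells and 75.8 in mature dendritic cells, against 0.888 in macrophages.

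Macrophages were not uniform in the members. Among the 11 macrophage clusters, the median H2-Ab1 level was 10471 CPM in a cluster led by Lncpint, Kcnq1ot1, and Ern1 (6341 to 12823 over 8 pools), 9104 in one led by Pxdc1, Sgk1, and Nlrp3 (8571 to 9409), and 7578 in the most numerous one, led by Tnfaip8l2, Ccl8, and Hebp1 (6402 to 8606). It was 3429 CPM in a cluster led by Mmp12, Hmox1, and Srxn1 (2104 to 4187) and 1418 in one led by Lyve1, Cd209f, and Ednrb, which had 10 cells or more in 6 pools (504 to 1810). The ranges of the highest and the lowest of these clusters did not overlap. Ciita had a median of 152 CPM in the Lncpint cluster, 15.0 in the Mmp12 cluster, and 22.0 in the Lyve1 cluster. The leading genes Lncpint and Kcnq1ot1 encode noncoding RNAs, of which Kcnq1ot1 stays in the nucleus. Clusters were drawn from these same cells, so these values are a description.

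**Figure D2:**
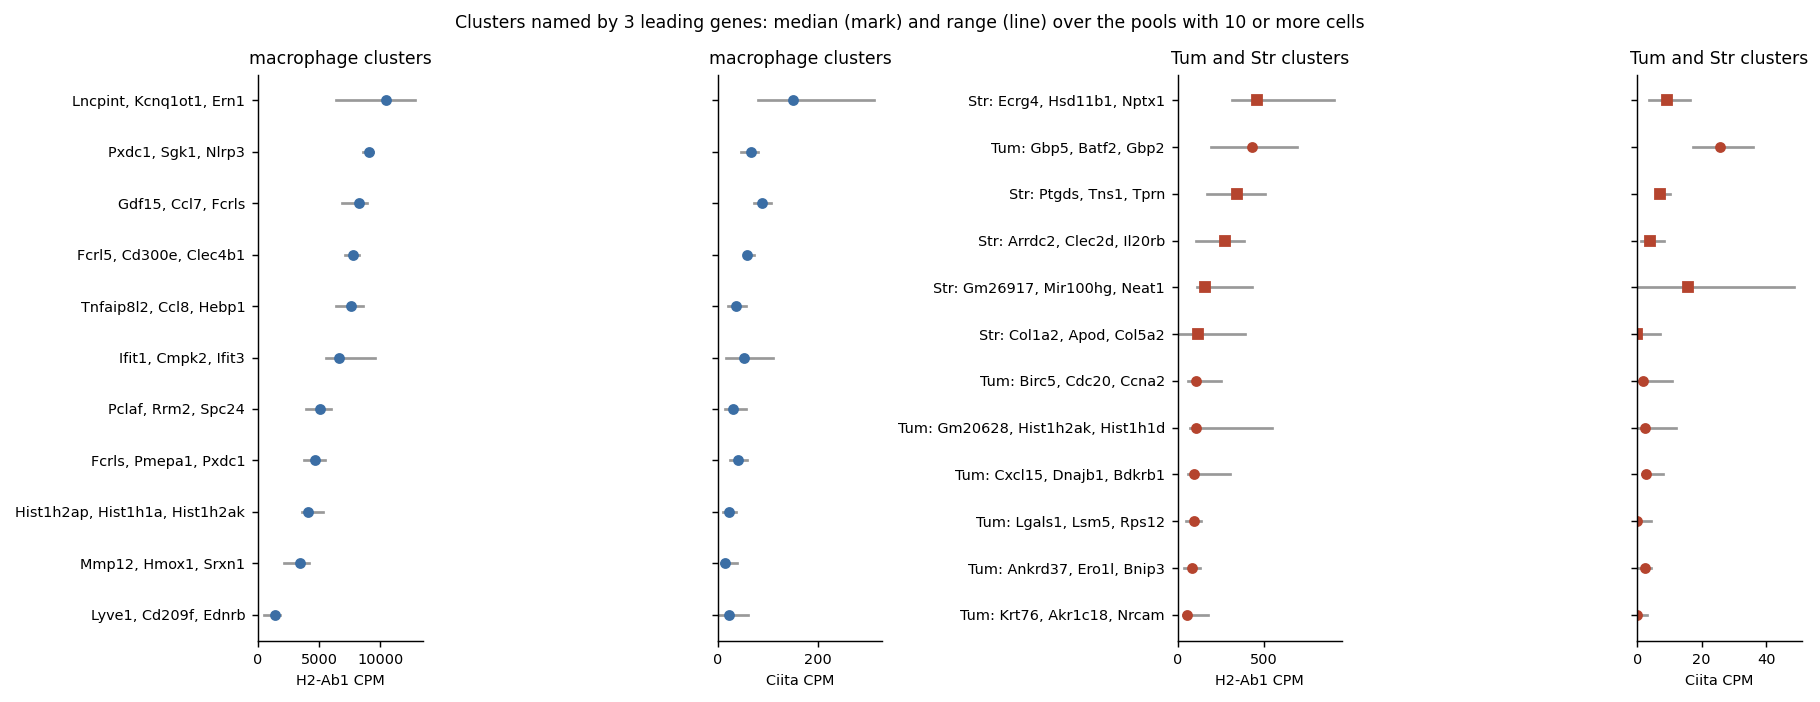
H2-Ab1 and Ciita (CPM) in the clusters of macrophages at left and of tumor-like (Tum) and stromal-like (Str) cells at right, each named by its 3 leading genes. A mark is the median and a line the range over pools with at least 10 cells of the cluster, for clusters with 5 such pools or more. H2-Ab1 runs from 1418 to 10471 CPM over the macrophage clusters, and among the tumor-like clusters the one led by Gbp5, Batf2, and Gbp2 is highest at 429 CPM.

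The next comparison asked whether tumor-like and stromal-like cells carried class II transcripts beyond what T cells pick up, since free RNA gives UMIs in cells that do not make a gene. Cells of the 8 whole-tumor libraries were thinned to 1000 UMIs each, and shares of cells with a UMI were compared with the T cells of the same library by an exact two-sided sign-flip permutation test, adjusted over 14 tests. Cd74 was found in 27.7% to 54.9% of tumor-like cells (median 43.3%) and 43.8% to 66.5% of stromal-like cells (median 55.0%), against 16.8% to 28.2% of T cells (median 23.7%). H2-Aa was found in 12.9% to 26.6% of tumor-like (median 20.3%) and 21.7% to 46.2% of stromal-like cells (median 35.2%), against 5.49% to 10.3% of T cells (median 9.11%). The ranges of H2-Aa did not overlap with those of T cells in either class. H2-Eb1 had medians of 13.7% and 26.8% against 7.00%, H2-DMb1 4.94% and 8.47% against 1.47%, and H2-Ab1 9.35% and 22.0% against 6.20%. All of these passed the exact permutation test in both classes (adjusted P = 0.0122, and 0.0398 for H2-Ab1 in tumor-like cells, where 6 of 8 libraries were higher). H2-DMa passed in stromal-like cells alone (median 9.76% against 2.92%, exact permutation test, adjusted P = 0.0219), and its median in tumor-like cells was 3.46% (adjusted P = 0.202). Ciita did not pass in either class, with medians of 0.355% and 0.909% against 0.253% (exact permutation test, adjusted P = 0.281 and 0.0547). In all, 5 of 7 members were above T cells in tumor-like cells and 6 of 7 in stromal-like cells. These classes differ in much of their transcriptome: with expected thinned shares, a calculation added after seeing the data, 40.1% of 11313 genes in tumor-like and 47.9% of 11857 in stromal-like cells were above T cells at an unadjusted P below 0.05 in the same exact permutation test, beside 6 and 7 of 7 members. Ciita, whose thinned UMIs are few, was among these members (expected share 0.498% in tumor-like and 0.788% in stromal-like against 0.191% in T cells). With no upper limits on cells, 3 of 7 passed in tumor-like cells. In stromal-like cells all members passed there, with Ciita higher in 8 of 8 libraries (exact permutation test, adjusted P = 0.0122). Without thinning, Ciita passed in both classes, with medians of 2.53% and 4.40% against 0.564% (exact permutation test, adjusted P = 0.00911), at unequal depth. Before thinning, an H2-Aa UMI was found in a median of 41.2%, 61.1%, and 21.8% of tumor-like, stromal-like, and T cells, whose median depths were 4863, 6435, and 3280 UMIs.

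**Figure D3:**
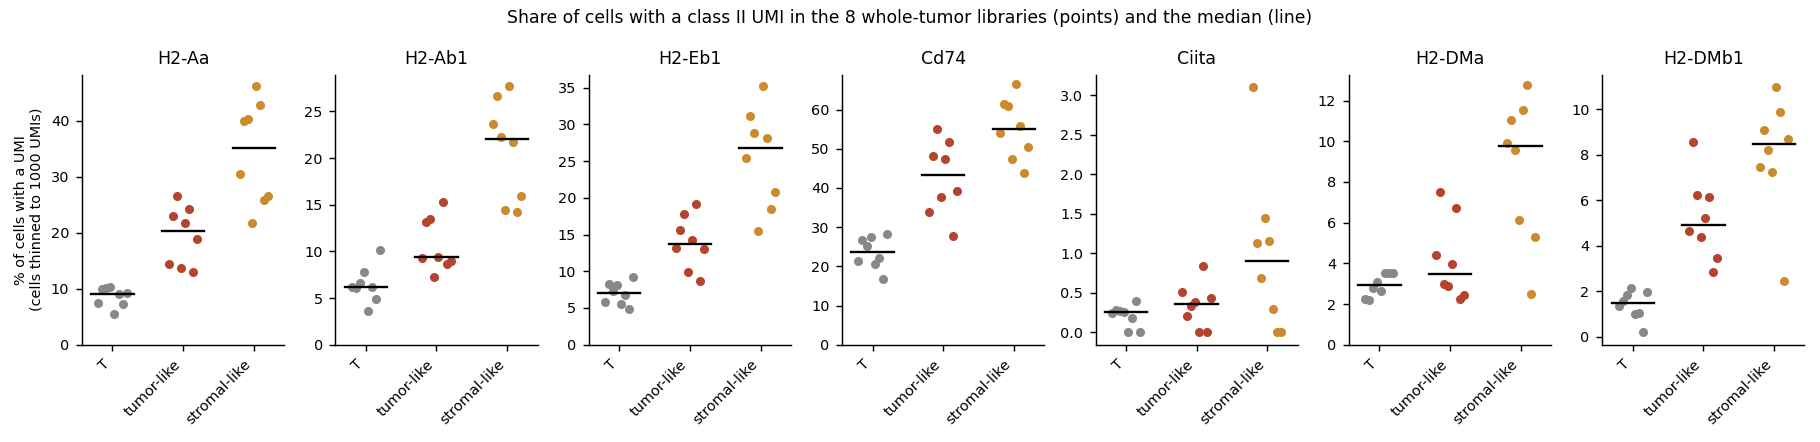
Share of cells with a UMI of each member (percent, cells thinned to 1000 UMIs) in T, tumor-like, and stromal-like cells. A point is 1 of the 8 whole-tumor libraries and a line the median. Tumor-like and stromal-like points lie above all T cell points for H2-Aa and H2-DMb1, and the Ciita points overlap.

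The shares depended on which class served as background. Neutrophils, at a median of 1475 UMIs per cell, had thinned shares of 43.8% for Cd74, 12.1% for H2-Ab1, and 14.0% for H2-Eb1. The tumor-like medians of these were no higher, at 43.3%, 9.35%, and 13.7%. For H2-Aa and H2-DMb1 the neutrophil shares were 17.5% and 2.47%, below the tumor-like medians of 20.3% and 4.94%. The ratio of a member to the C1q genes, markers of macrophages, gave another view. H2-Ab1 had a median of 0.414 UMIs per C1q UMI in macrophages, 0.420 in T cells, and 0.357 in neutrophils, whereas it had 1.71 in tumor-like cells (0.809 to 2.80) and 3.78 in stromal-like cells (1.36 to 5.43). Endothelial cells also had more, at 1.96 (0.762 to 4.17). T cells and neutrophils thus held H2-Ab1 and C1q in nearly the macrophage ratio, which was not so for every member: H2-DMa had 0.148 UMIs per C1q UMI in T cells and 0.0475 in macrophages, and Ciita 0.00851 and 0.00396. Monocytes had 0.799 to 1.21 H2-Ab1 UMIs per C1q UMI, which overlapped with tumor-like cells, and B cells 5.97 to 57.5. The tumor-like and stromal-like H2-Ab1 ratios lay above those of macrophages, T cells, and neutrophils in all 8 libraries. With cells that had a C1q UMI left out of all 3 classes, a choice made after seeing the data, 5 and 6 members still passed, with H2-Ab1 higher in 8 of 8 libraries. With cells that had any UMI of a macrophage, dendritic, or B cell marker left out of the tumor-like and stromal-like classes, 0 members passed in either class (exact permutation test, lowest adjusted P = 0.109), and only 167 of 4068 tumor-like and 25 of 2027 stromal-like cells remained. T cells were not filtered in this setting, and only 401 of 6669 had no such UMI. The sides compared were thus unlike and the cells few, so this setting cannot decide the question.

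Within the tumor-like class the levels were uneven. A cluster of 825 cells led by Gbp5, Batf2, and Gbp2, genes induced by interferon, had a median of 429 CPM for H2-Ab1 (193 to 692 over 8 pools), 3870 for Cd74 (1796 to 5571), and 25.5 for Ciita (17.4 to 35.9). The other tumor-like clusters with 5 pools or more had H2-Ab1 medians between 53.8 and 110 CPM and Ciita medians between 0 and 2.73. The Ciita range of the Gbp5 cluster lay above those of all of them. Among stromal-like clusters, one led by Ecrg4, Hsd11b1, and Nptx1 had an H2-Ab1 median of 458 CPM, and the one led by Col1a2, Apod, and Col5a2 118 CPM. These values are again a description.

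The treatments were compared on UMIs of a class summed by pool, with edgeR's quasi-likelihood test over all genes of the class and the other agents as covariates. A gene counts as called at a Benjamini-Hochberg adjusted P below 0.05 and an absolute log2 difference above 0.5. With PancVAX, 0 members were called in any class, by edgeR and also by DESeq2. In macrophages, monocytes, type 1 dendritic, and type 2 dendritic cells, where 0%, 0.129%, 0.751%, and 0.257% of all genes were called, 0 of 7 members passed in each. In mature and plasmacytoid dendritic cells (0% and 0% of genes) 5 and 6 members had enough UMIs to be tested. B cells, tumor-like, and stromal-like cells (0%, 0%, and 0.119% of genes) also gave 0 of 7. Over the 60 member tests, 7 had an unadjusted P below 0.05 (edgeR), beside 10.6% of all gene tests over the 9 classes, so that the count over all classes was near the background. Of the 7, 6 were in monocytes, where 8.45% of genes had such a P.

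Monocytes are recruited from blood and raise MHCII as they turn into macrophages or dendritic-like cells in tissue. In the class named monocyte, the 15 macrophage markers summed to a median of 11984 CPM in whole-tumor and 12335 in Percoll libraries. Its own 11 markers summed to 6630 and 6981 CPM. In macrophages the 15 markers summed to 35568 and 38190 CPM. The name monocyte is thus loose too, and how far these cells had turned into macrophages was not tested. In this class H2-Eb1 was at 5095, 4642, 5243, and 4479 CPM in the pools PancVAX, PancVAX + Anti-PD-1 + Anti-CTLA-4, PancVAX + Anti-PD-1, and PancVAX + Anti-CTLA-4, and at 3905, 3493, 3785, and 3594 CPM in Anti-PD-1 + Anti-CTLA-4, Anti-CTLA-4, Anti-PD-1, and Isotype Control. All 4 vaccinated pools were above all 4 others. The log2 difference was 0.39 (SE 0.07), at an adjusted P of 0.0394 in edgeR's quasi-likelihood test, and it stayed under the fold limit. By adjusted P alone, 0.143% of genes in monocytes passed.

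H2-Aa followed the same pattern, at 6749, 6332, 7208, and 6239 CPM with the vaccine and 5873, 5269, 5601, and 5340 without, in the same order of pools (log2 difference 0.26, SE 0.07, edgeR adjusted P = 0.180). H2-Ab1 was at 5484, 4647, 5276, and 4734 CPM with and 4275, 3606, 4191, and 4229 without (log2 difference 0.30, SE 0.07, edgeR adjusted P = 0.119). Cd74 was at 18612, 17491, 20060, and 17554 CPM with and 15158, 13761, 16223, and 16433 without (log2 difference 0.25, SE 0.06, edgeR adjusted P = 0.0800). In none of these did the groups overlap, although none passed the adjusted limit. Ciita was at 58.2, 47.2, 41.9, and 48.4 CPM with and 28.0, 41.8, 33.8, and 35.4 without, which also did not overlap, by a narrow margin (log2 difference 0.49, SE 0.18, edgeR adjusted P = 0.409). Within either preparation the Ciita groups did overlap. Whole-tumor libraries were at 56.8 to 65.8 CPM with and 38.1 to 62.4 without the vaccine, and Percoll libraries at 23.5 to 47.2 and 17.7 to 31.1. H2-DMb1 (log2 difference 0.34, edgeR adjusted P = 0.281) and H2-DMa (0.08, adjusted P = 0.858) overlapped between the groups.

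**Figure D4:**
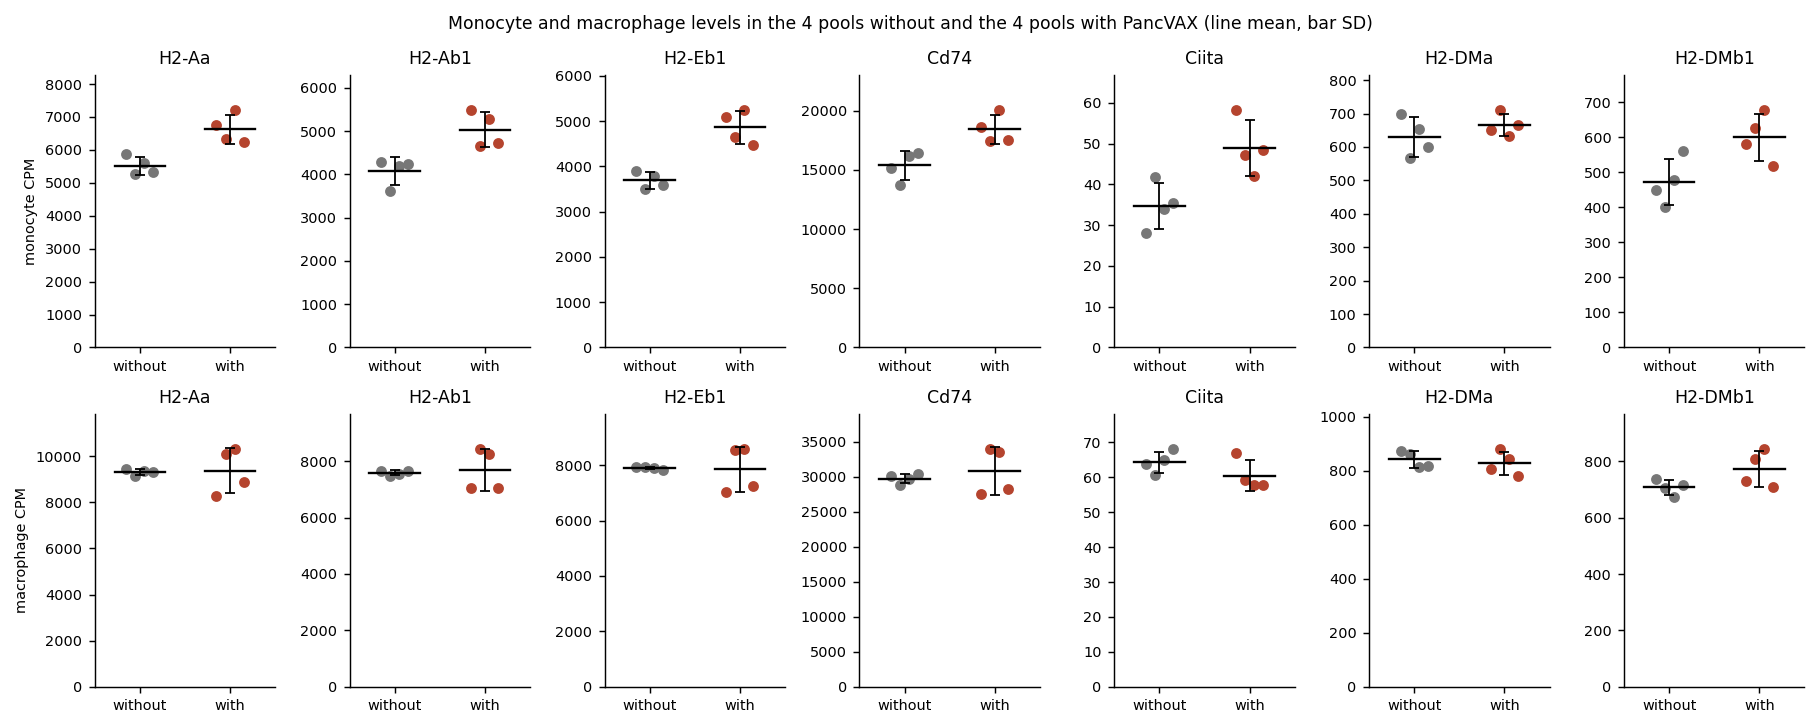
CPM of each member in monocytes (top) and macrophages (bottom) in the 4 pools without and the 4 with PancVAX. A point is a pool, a line the mean, and a bar the SD. In monocytes the groups are apart for H2-Aa, H2-Ab1, H2-Eb1, Cd74, and Ciita, and in macrophages they overlap for all 7.

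Thus 5 of 7 members had all vaccinated monocyte pools above all others, against 2.46% of the 6190 monocyte genes with a median of 10 UMIs or more per pool. The median log2 difference of the 7 members was 0.30, beside −0.01 over all monocyte genes tested. The genes of this pathway share their regulation, so the members are not separate pieces of evidence. In the whole-tumor libraries alone, 2 members were called in monocytes, H2-Ab1 (log2 difference 0.51) and H2-Eb1 (0.56). In the Percoll libraries alone the differences were smaller, at 0.07 for H2-Ab1 and H2-Aa, 0.11 for Cd74, and 0.18 for H2-Eb1. Vaccinated and other Percoll libraries overlapped for the first 3 of these, with H2-Ab1 at 4559 to 5336 CPM with and 3775 to 5191 without the vaccine, whereas for H2-Eb1 all 4 vaccinated libraries (4603 to 5274 CPM) were above all 4 others (3826 to 4443). Across all alternatives and leave-outs the H2-Eb1 difference ran from 0.18 to 0.56, with adjusted P between 6.17e-05 and 0.745 (edgeR or DESeq2). The summed level of the 15 macrophage markers in monocytes overlapped between vaccinated (9964 to 17237 CPM) and other libraries (9064 to 13667), and that of the 7 type 2 dendritic markers was 234 to 338 CPM against 124 to 237. The 10 mature dendritic markers summed to 136 to 222 CPM with (median 182) and 94.7 to 178 without the vaccine (median 130), and the 11 monocyte markers to 5923 to 7681 with (median 6355) and 6386 to 8943 without (median 7204), which overlapped. Their part in the result was not tested.

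Macrophages did not share the pattern. H2-Eb1 had a log2 difference of −0.05 (SE 0.06) and H2-Ab1 of −0.03 (SE 0.06) with PancVAX, and the other members lay between −0.13 and 0.08. The effect of the vaccine on a member was then compared between macrophages and each other class, by an exact two-sided permutation over the 70 splits of the pools, in 56 tests. The differences of monocytes minus macrophages were 0.41 for H2-Eb1, 0.26 for H2-Aa, and 0.58 for Ciita on the log2 scale, each at the smallest P these splits allow (0.0286) and each at an adjusted P of 0.533. With so few splits and 56 tests the adjusted limit was out of reach unless most tests had that P, so that this test could hardly tell the classes apart. In type 2 dendritic cells H2-DMb1 was at 798, 741, 728, and 907 CPM with PancVAX and 656, 602, 602, and 688 without (log2 difference 0.29, SE 0.10, edgeR adjusted P = 0.431). It was the 1 member of 7 whose groups of pools did not overlap in that class, where 2.39% of 4522 genes had all vaccinated pools higher. Within either preparation its groups did overlap. Whole-tumor libraries were at 701 to 902 CPM with and 432 to 703 without the vaccine, and Percoll libraries at 740 to 946 and 656 to 792.

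With anti-PD-1, 0 members were called over the 9 classes by edgeR's quasi-likelihood test or by DESeq2 (0.0203% of 59157 gene tests were called), and 10 of 60 had an unadjusted P below 0.05, beside 5.92% of all gene tests. Of these, 4 were in mature dendritic cells, which have taken up antigen and leave for the lymph node, 4 were in macrophages, and 2 in type 1 dendritic cells. In mature dendritic cells the H2-Ab1 level was 203, 984, 897, and 1186 CPM in the pools PancVAX + Anti-PD-1 + Anti-CTLA-4, PancVAX + Anti-PD-1, Anti-PD-1 + Anti-CTLA-4, and Anti-PD-1, and 1537, 1741, 2583, and 1078 CPM in PancVAX, PancVAX + Anti-CTLA-4, Anti-CTLA-4, and Isotype Control. The groups overlapped by Isotype Control, and the lowest pool rested on 28 UMIs. The log2 difference was −1.19 (SE 0.32, unadjusted P = 0.00135, adjusted P = 0.358 in edgeR's quasi-likelihood test). All 5 members tested in this class were lower with anti-PD-1, from −0.41 for H2-Aa to −1.19, beside a median of −0.01 over all genes tested. The H2-Ab1 difference was −0.70 without the pool of all 3 agents and −1.68 without Isotype Control, where 2 members were called over all classes. More members were called with no filter on low counts. Over the alternatives the adjusted P of H2-Ab1 ran from 1.28e-06 to 0.999 (edgeR or DESeq2). In macrophages the chains and Cd74 were slightly higher with anti-PD-1 (0.15 to 0.17 on the log2 scale, lowest edgeR adjusted P = 0.805). In type 1 dendritic cells H2-Ab1 and H2-Eb1 had log2 differences of 0.33 and 0.29 (edgeR adjusted P = 0.791 for both). All 7 members had positive values in tumor-like (0.03 to 0.48) and stromal-like cells (0.02 to 0.47), with 0 at an unadjusted P below 0.05. Over the alternatives the adjusted P of H2-Eb1 in stromal-like cells ran from 0.00132 to 0.99995 (edgeR or DESeq2), at log2 differences of 0.15 to 0.72. The lowest was 0.00354 for H2-Ab1, 0.00469 for H2-Aa, and 0.0376 for Cd74. None of these was called there in any alternative.

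With anti-CTLA-4, 0 members were called by edgeR or DESeq2 (0.022% of gene tests were called), and 4 of 60 had an unadjusted P below 0.05, beside 5.24% of all gene tests. All 7 members had higher values in tumor-like cells, by 0.40 to 0.57 on the log2 scale, but pools of 1 group spread as widely. H2-Ab1 was at 199, 89.7, 182, and 253 CPM in PancVAX + Anti-PD-1 + Anti-CTLA-4, PancVAX + Anti-CTLA-4, Anti-PD-1 + Anti-CTLA-4, and Anti-CTLA-4, and at 89.9, 236, 107, and 101 CPM in PancVAX, PancVAX + Anti-PD-1, Anti-PD-1, and Isotype Control. The groups overlapped, and the lowest adjusted P of the 7 was 0.549 in edgeR's quasi-likelihood test.

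The members were also compared between the preparations. In macrophages, all 7 members passed an adjusted P of 0.05 between Percoll and whole-tumor libraries (edgeR with the treatment as a block), as did 22.1% of all genes, and 0 of 7 also passed the fold limit, as did 5.52% of genes. Over the alternatives the adjusted P (edgeR or DESeq2) reached 0.125 for Ciita, 0.0593 for H2-DMa, and 0.0705 for H2-DMb1. It stayed below 0.05 for the other members. H2-Eb1 was at 6588 to 8157 CPM in the 8 whole-tumor libraries (median 7147) and 7301 to 9551 in the 8 Percoll libraries (median 8884), and it was higher in the Percoll library of each of the 8 treatments (log2 difference 0.33, SE 0.04, edgeR adjusted P = 8.36e-07). The ranges overlapped, although each pair moved the same way. The other chains, Cd74, and the H2-DM genes were higher by 0.21 to 0.29 on the log2 scale. Ciita went the other way, at 62.7 to 73.0 CPM in whole tumors (median 67.5) and 45.6 to 66.6 in Percoll libraries (median 55.4), a log2 difference of −0.21 (SE 0.06, edgeR adjusted P = 0.0132). The summed level of the 15 macrophage markers was also higher, at 35184 to 40766 CPM in Percoll and 33012 to 37064 in whole-tumor libraries, and its part in these differences was not tested.

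Ciita also fell in monocytes. It was at 38.1 to 65.8 CPM in whole tumors (median 59.2) and 17.7 to 47.2 in Percoll libraries (median 26.6), lower in all 8 treatments (log2 difference −0.92, SE 0.19, edgeR adjusted P = 0.00279). This was the 1 member of 7 called in monocytes (3.84% of genes). The call held in 14 of 15 alternatives and was lost with no upper limits on cells (−0.34, edgeR adjusted P = 0.0546), where H2-Eb1 was called instead (0.51). The 9 neutrophil markers summed to a median of 413 CPM in Percoll and 258 in whole-tumor monocytes, and the 10 tumor-like markers to 20.7 and 43.0. Their ranges overlapped, and their part in the Ciita difference was not tested. H2-Eb1 also passed by adjusted P alone (log2 difference 0.26, adjusted P = 0.0105), as did 7.08% of genes. In B cells Ciita was called as well (log2 difference −0.51, SE 0.14, edgeR adjusted P = 0.0304; 7.63% of genes were called), at 0 to 194 CPM in whole tumors (median 153) and 25.2 to 122 in Percoll libraries (median 107). The value of 0 came from PancVAX + Anti-PD-1, which had the fewest B cells. The call in B cells was lost without the treatment block and without any 1 of 5 pools. The 9 neutrophil markers summed to a median of 357 CPM in Percoll and 85.8 in whole-tumor B cells, with ranges that overlapped. Their part was not tested. By adjusted P alone, H2-Ab1 (0.22) and H2-Eb1 (0.21) passed in B cells, as did 9.24% of genes.

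In type 2 dendritic cells 0 members were called (3.39% of genes) and 6 of 7 had an unadjusted P below 0.05 (edgeR; 16.95% of genes), and H2-Aa, H2-Eb1, and Cd74 passed by adjusted P alone, at log2 differences of 0.29, 0.29, and 0.32 (4.2% of genes). In tumor-like cells 0 were called (3.33% of genes) and 5 of 7 had an unadjusted P below 0.05 (25.3% of genes), and Cd74 passed by adjusted P alone (0.30, edgeR adjusted P = 0.0361; 11.7% of genes). Type 1 dendritic, mature dendritic, and stromal-like cells gave 0 called members by edgeR (1.26%, 0.482%, and 2.86% of genes), of which mature dendritic cells had 4 of 5 at an unadjusted P below 0.05 (8.79% of genes) and the other classes 0 (8.52% of genes in type 1 dendritic and 22.5% in stromal-like cells). DESeq2 called 2 members in mature dendritic cells. In stromal-like cells the adjusted P over the alternatives (edgeR or DESeq2) ran from 0.000847 to 0.828 for H2-Aa and from 0.00135 to 0.999 for H2-Eb1. For H2-Ab1 it ran from 0.00437 to 0.990. None of these was called there in any alternative. Plasmacytoid dendritic cells were too few per library for this fit. Ciita had a negative log2 difference in each of the 7 classes where it was tested, whereas H2-Aa, H2-Ab1, and Cd74 had positive ones in all 8 classes fitted.

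**Figure D5:**
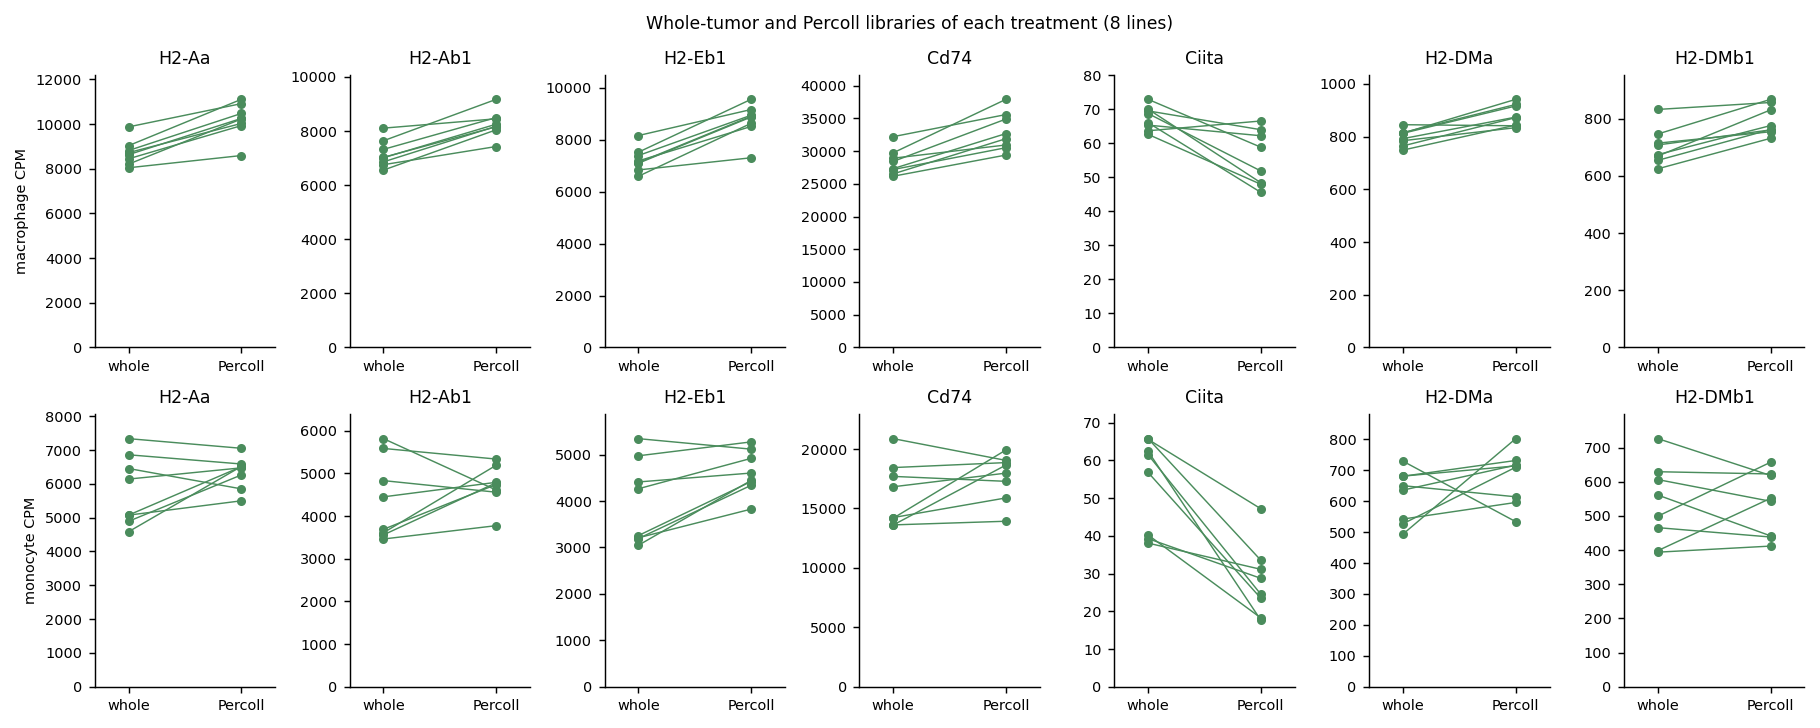
CPM of each member in macrophages (top) and monocytes (bottom). A line joins the whole-tumor and the Percoll library of 1 of 8 treatments. In macrophages 5 members are higher after Percoll in all 8 treatments, H2-DMa is higher in 7, and Ciita is lower in 7, and in monocytes Ciita is lower in all 8.

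Other genes of the pathway were read from the same fits. With PancVAX, 1 of the lists' genes was called in any class: Cd83, which protects MHCII at the cell surface from removal by the ligase MARCH1, rose in type 1 dendritic cells, from 185, 236, 125, and 117 CPM without to 358, 414, 369, and 299 with the vaccine (log2 difference 1.07, SE 0.22, edgeR adjusted P = 0.0258). The groups did not overlap. The call held in 9 of 22 alternatives and was lost in either preparation alone, with no upper limits on cells, with per-cell gates, and without any 1 of 6 pools, with log2 differences between 0.25 and 1.27. Cd83 also marks the maturation of dendritic cells, and the summed level of the 10 mature dendritic markers in type 1 dendritic cells was 19.7 to 1212 CPM in libraries with the vaccine (median 207) and 0 to 176 without (median 76.9). Its part in the result was not tested. In the list of antigen processing genes, 1 of 45 tests was thus called, and 0 of 20 for the other class II chains, 0 of 38 for the factors of the class II promoter, and 0 of 59 for the path from the interferon gamma receptor to Ciita, of which 2, 5, and 11 reached an unadjusted P below 0.05 in edgeR. Over all genes and classes 0.0896% of tests were called and, as above, 10.6% had an unadjusted P below 0.05. With anti-PD-1 or anti-CTLA-4, 0 of these genes were called by edgeR or DESeq2, and 13 and 5 of 162 tests had an unadjusted P below 0.05, beside 5.92% and 5.24% of all gene tests.

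Between the preparations, 6 of 137 tests of these lists were called, all higher in Percoll libraries, a share near the 4.1% of all gene tests that were called over the 8 classes fitted. Cd83 rose in macrophages and type 2 dendritic cells (log2 difference 0.54 and 0.81), and H2-Ob in macrophages (0.54). Of 15 alternatives, the call held in 13 for Cd83 in macrophages, 15 for Cd83 in type 2 dendritic cells, and 11 for H2-Ob, which was lost without either of 2 pools, and the number of calls of these lists ran from 5 to 9 with 1 pool left out. Irf1, which drives Ciita downstream of interferon gamma, rose in type 2 dendritic cells (0.95) and B cells (1.96), and Socs1, which restrains that signal, rose in B cells (2.09, edgeR adjusted P = 2.81e-05). The summed level of the 9 neutrophil markers was also higher in Percoll libraries of these classes, at a median of 1644 against 786 CPM in type 2 dendritic cells and 357 against 85.8 CPM in B cells, with ranges that overlapped, and its part in these results was not tested. March1, whose product removes MHCII from the surface, was lower in macrophages by adjusted P alone (−0.25, edgeR adjusted P = 0.0067). Factors of the class II promoter (Rfx5, Rfxap, Rfxank, Nfya, Nfyb, Nfyc, and Creb1) gave 0 calls in 29 tests by edgeR, with 6 at an unadjusted P below 0.05, beside 23.9% of all gene tests. Rfx5 was at a median of 8.12 CPM in macrophages and 6.79 in T cells, so that this factor was present where Ciita was near 0.

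Across the 9 classes, the profile of H2-Ab1 was most like those of Tm6sf1 (Pearson r = 0.971), Evl (0.960), Ptpn7, Ptpn22, and Slc36a3os among 9056 genes compared outside the lists. These values rest on 9 points that share libraries. Ciita had r = 0.956, H2-Aa 0.983, and Cd74 0.985, and March1 had 0.955. Over the 16 macrophage libraries, the most alike of 5259 genes were Map1lc3b (Spearman rho = 0.929), Smim3, Per1, Acvrl1, and Rgs1, and H2-Eb1 had 0.985. Ciita had −0.476 and March1 −0.794 there, and all 16 points share the split between the preparations described above.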

How the data were processed

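Single-cell RNA was sequenced with a 10x 5′ kit in 16 libraries. The authors deposited raw UMI counts per gene and barcode, made with Cell Ranger 4.0.0 on mm10 per the submitters' processing notes. From these counts, cells with 200–3000 genes, 1000–10000 UMIs, less than 10% mitochondrial UMIs, and no hemoglobin UMIs were kept, after the study's limits. Log values (per 10000 UMIs) of 2000 variable genes without the class II genes gave 25 principal components, which were aligned between batches by a reimplementation of Harmony and clustered by the Louvain method (resolution 0.6, and 1 within a compartment; scanpy 1.11.5, igraph 0.11.9). Clusters were named from marker genes. Doublets were kept, and Scrublet was an alternative. UMIs of a class were summed by pool and tested with edgeR 4.0.16 (R 4.3.3) after TMM scaling and filterByExpr, and DESeq2 1.42.0 was an alternative. Preparations were compared over libraries with at least 10 cells of the class, with the treatment as a block, because both libraries of a treatment carry its label. Each treatment has 1 pool, so no treatment is replicated. P-values of the agents and of the order of classes rest on the spread between pools of unlike treatments. Those of the preparations and of the comparison with T cells rest on the spread between libraries. The spread between mice was not measured. The genes named are the 7 members, the genes of the pathway lists, and the 5 nearest profiles of each kind. Members and lists were chosen with earlier results of these data known. The scripts' tests were checked on simulated data.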

Additional observations from a re-analysis of the deposited data

Results flagged for a closer look

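Of 126 groups of 4 pools (7 members in 9 classes, with and without PancVAX), 7 (5.56%) had 1 pool far from the other 3 by Dixon's test, where chance alone gives about 5%. Among the pools without PancVAX, Anti-CTLA-4 was high in mature dendritic cells for H2-Aa (5781 CPM, next pool 3369) and H2-Eb1 (3924, next 2092), and low in monocytes for H2-Ab1 (3606, next 4191). Among the vaccinated pools, PancVAX + Anti-CTLA-4 was high in type 2 dendritic cells for H2-Ab1 (9981 CPM, next 8419) and H2-Eb1 (10492, next 9100). PancVAX alone was high in macrophages for Ciita (66.9 CPM, next 59.1). PancVAX + Anti-PD-1 was low in B cells for H2-DMa (372 CPM, next 557), in the pool with 42 B cells. The cause was not tested in any of them.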

How the results depend on the processing

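Of 4905 single values recomputed under an alternative, 15 gained and 20 lost a call and 61 levels moved by more than the SD between pools. The sign changed in 443, of which 3 were called values and 440 were not called in either setting. With PancVAX, member counts changed in monocytes alone, from 0 to 2 in the whole-tumor libraries. With anti-PD-1 the count was 3 with no filter on low counts and 0 to 2 when 1 pool was left out (2 without Isotype Control). Between the preparations, type 2 dendritic cells gave 1 call with no upper limits on cells, and mature dendritic cells 2 with DESeq2 and 0 to 1 with 1 pool left out (1 without Isotype Control). The B cell call of Ciita fell to 0 without the replicate block, with no filter on low counts, with Scrublet doublets left out, and with no upper limits, and was 0 to 1 with 1 pool left out (0 without PancVAX, PancVAX + Anti-CTLA-4, Anti-PD-1 + Anti-CTLA-4, Anti-CTLA-4, or Isotype Control). Omitting the block changed no other count of members called. Calls among the other pathway genes with PancVAX (1) were 3 with no filter, and 0 in either preparation alone, with no upper limits, with per-cell gates, and without the Percoll library of PancVAX + Anti-PD-1, the last chosen after seeing the data. With 1 pool left out they were 0 to 3 (0 without PancVAX, PancVAX + Anti-PD-1, PancVAX + Anti-PD-1 + Anti-CTLA-4, Anti-PD-1 + Anti-CTLA-4, or Isotype Control, 2 without Anti-CTLA-4, and 3 without PancVAX + Anti-CTLA-4). With anti-PD-1 they were 1 with no filter, and between the preparations 12 with no upper limits, against 6. Members above T cells numbered 3 in tumor-like cells with no upper limits. They numbered 0 in tumor-like and 0 in stromal-like cells once cells with a macrophage, dendritic, or B marker UMI were left out of these classes but not of T cells. In that setting the differences of H2-Ab1 (−2.40 percentage points) and H2-Eb1 (−0.0139) in tumor-like and H2-DMb1 (−1.39) in stromal-like cells reversed, and few cells remained. H2-DMa in tumor-like (−0.304) and Ciita in stromal-like cells (−0.203), which did not pass in either setting, also changed sign there. Settings with fewer than 10 cells of a class in a pool gave no value, among them some single-preparation fits. The causes of these changes were not tested.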
